A study of Mus musculus with 40 samples.

Results

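The 10 genes described here encode the effector cytokines of helper T cells: Ifng, Il17a, Il4, Il5, Il13, Il22, Il2, Tnf, Csf2 and Lta. They were taken by symbol from the deposited count table, in which each symbol matched 1 row, so that 10 of 55421 genes are considered, with all 40 libraries. Regulatory T cells (Treg), the CD4+ cells that carry the transcription factor Foxp3 and restrain other lymphocytes, were compared with conventional CD4+ T cells (Tconv) across 10 mouse sources, each source giving 3 libraries of Treg and 1 of Tconv from 2000 sorted cells apiece. Every animal is labelled wild type and was perfused, and solid tissues were digested; age, sex and strain are not given in the sources used here. Both populations were sorted as CD4+ cells of mice with a Thy1.1 surface reporter placed under Foxp3: Treg were the reporter-positive cells and Tconv the reporter-negative cells. The Tconv gate is therefore set by the absence of the reporter and can hold naive, memory and effector cells and any other CD4+ cell. Blood, spleen and lymph node are called lymphoid sources here. Kidney, liver, lung and pancreas are called solid organs, and IEL and LPL, the usual names for intraepithelial and lamina propria lymphocytes of the gut, are called the gut wall; both together are called tissues, and Peyer's patch, a lymphoid structure of the gut, was kept apart. Nothing in the labels ties libraries to individual animals, so that p-values reflect the spread between libraries, which may be partly technical.

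Helper T cells are classed by the cytokines they release after antigen recognition. Interferon gamma (Ifng) is the type 1 cytokine that activates macrophages, interleukins 4, 5 and 13 are the type 2 cytokines of allergy and worm infection, and interleukins 17A and 22 are the type 17 cytokines that act on epithelium at barriers. Interleukin 2 is the T cell growth factor that Treg consume through the high-affinity receptor but, in textbook accounts, do not make, and Foxp3 is known to repress several of these genes. Tnf, Lta (lymphotoxin alpha) and Csf2 (GM-CSF) are made by T cells of several classes. Many of these messages are short-lived, and signalling through the antigen receptor commonly induces their transcription.

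On mm10 the genes lie on 5 chromosomes. Il17a is at chr1:20730905-20734496, Il2 at chr3:37120523-37125959, Il22 at chr10:118204942-118210047 and Ifng at chr10:118441046-118445892. On chromosome 11 lie Il4 at 53602982-53618669, Il13 at 53631324-53634702, Il5 at 53720794-53725106 and Csf2 at 54247271-54249667. Tnf is at chr17:35199381-35202007 and Lta at chr17:35203165-35205351.

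Promoter sequence is shown for the pair of genes that moved together most closely (Il17a and Il22), for the neighbouring pair that did not (Tnf and Lta), and for Ifng, the gene with the largest count in a single library. Each line gives the 110 bases before the annotated start, read 5′ to 3′ on the gene's strand, from RefSeq on GRCm38.p6. The RefSeq start of Il22 lies inside the GENCODE gene given above, and the window follows RefSeq. Capitals mark matches to the NFAT core GGAAA or the NF-kB pattern (GGG and CC, 5 bases apart) on either strand, to the AP-1 pattern TGANTCA, or to TATAAA on the sense strand.

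Il17a chr1:20730795-20730904 (+): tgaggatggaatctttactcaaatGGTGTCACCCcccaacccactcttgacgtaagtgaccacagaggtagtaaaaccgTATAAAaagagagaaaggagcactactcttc
Il22 chr10:118204854-118204963 (+): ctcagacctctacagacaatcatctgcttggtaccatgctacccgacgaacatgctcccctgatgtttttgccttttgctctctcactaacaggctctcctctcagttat
Ifng chr10:118440936-118441045 (+): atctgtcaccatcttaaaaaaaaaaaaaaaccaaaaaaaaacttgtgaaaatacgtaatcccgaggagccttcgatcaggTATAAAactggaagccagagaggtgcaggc
Tnf chr17:35202008-35202117 (-): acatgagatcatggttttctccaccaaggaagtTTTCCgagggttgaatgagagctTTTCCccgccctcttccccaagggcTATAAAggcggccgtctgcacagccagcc
Lta chr17:35205352-35205461 (-): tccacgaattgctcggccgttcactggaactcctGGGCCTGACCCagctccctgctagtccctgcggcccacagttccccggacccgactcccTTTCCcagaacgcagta

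Il17a, Ifng and Tnf held TATAAA about 30 bases before the start (at -31, -30 and -29), as did Il2 and Il13 at -31 and -29. Among all 32851 RefSeq promoters, 7.59% held TATAAA on the sense strand anywhere in the 250 bases before the start. In the same window the NFAT core was found in 55.6% of all promoters, the NF-kB pattern in 45.8% and AP-1 in 6.75%, so that a match to either of the first patterns is common. Il17a had no NFAT core match in this window and Il22 had 1, at -236. A match describes letters only, and no match says only that these letters are not in this window.

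The 3′ untranslated regions carry the AU-rich elements through which proteins such as tristetraprolin (Zfp36) shorten the life of cytokine messages. The stretch of 30 bases with the most copies of the pentamer ATTTA is shown for the genes on which the results turn, from the GENCODE M21 annotation, with each ATTTA in capitals.

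Tnf: attATTTAttATTTATTTAttATTTATTTA
Csf2: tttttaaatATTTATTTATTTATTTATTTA
Il2: ctATTTATTTAaatATTTAactttaATTTA
Ifng: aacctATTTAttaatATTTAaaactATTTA
Il17a: ATTTAtatgagctATTTAtgaatctATTTA
Il22: tttATTTAttataagtatacattttATTTA
Lta: tATTTAtggagagaaaagttaagttATTTA

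Tnf and Csf2 each held 5 copies within 30 bases, Il2 held 4, Ifng and Il17a 3, and Il22 and Lta 2. The nonamer TTATTTATT occurred in 6 of the 10 genes (Csf2, Il13, Il2, Il22, Lta and Tnf), against 7.65% of 21037 protein-coding genes and 3.02% of the 10201 genes whose 3′ untranslated region has a length within the range of the 10. The median density of ATTTA was 10.8 per kb in the 10 genes and 1.24 per kb in all protein-coding genes.

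Library totals ran from 12197980 to 28823493 counts. Foxp3, which the sort marks, lay between 65.9 and 305 CPM (counts scaled to a common library total, TMM-corrected) in the 30 Treg libraries and between 0.163 and 6.55 CPM in the 10 Tconv libraries. Kidney Treg replicate 1 stood apart from the other kidney Treg libraries for several of the 10 genes. The kidney tests of Ifng, Il17a, Il5, Tnf, Csf2 and Lta are given with and without it. Counts came from the 3′ ends of transcripts and were not divided by gene length, so levels are compared between libraries for 1 gene at a time. In bulk samples, fewer cells of a type and less RNA per cell cannot be told apart. The strand setting of the counting is not given in the sources used here, and Ifng, Csf2, Il2, Il5 and Lta overlap another annotated gene, so part of their counts could come from it.

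The counts of the 10 genes together made up different mixtures in different sources. In lymphoid Treg the summed level of the 10 genes was 85.4 CPM on average over 9 libraries, and Lta made up 74.9% of it, Tnf 20.2% and Ifng 2.55%. In gut wall Treg the sum was nearly the same, 81.6 CPM over 6 libraries, but Tnf made up 44.0%, Ifng 23.2%, Lta 13.3%, Il22 5.82% and Il17a 5.57%. In the 6 tissue Tconv libraries the sum averaged 284 CPM, from 69.0 CPM in lung to 633 CPM in kidney, against 43.1 CPM in the 3 lymphoid Tconv libraries. Ifng made up 66.2% of the sum in kidney Tconv, and Il17a and Il22 made up 32.2% and 29.3% of it in LPL Tconv. These are shares of 3′ counts, not of protein.

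**Figure D1:**
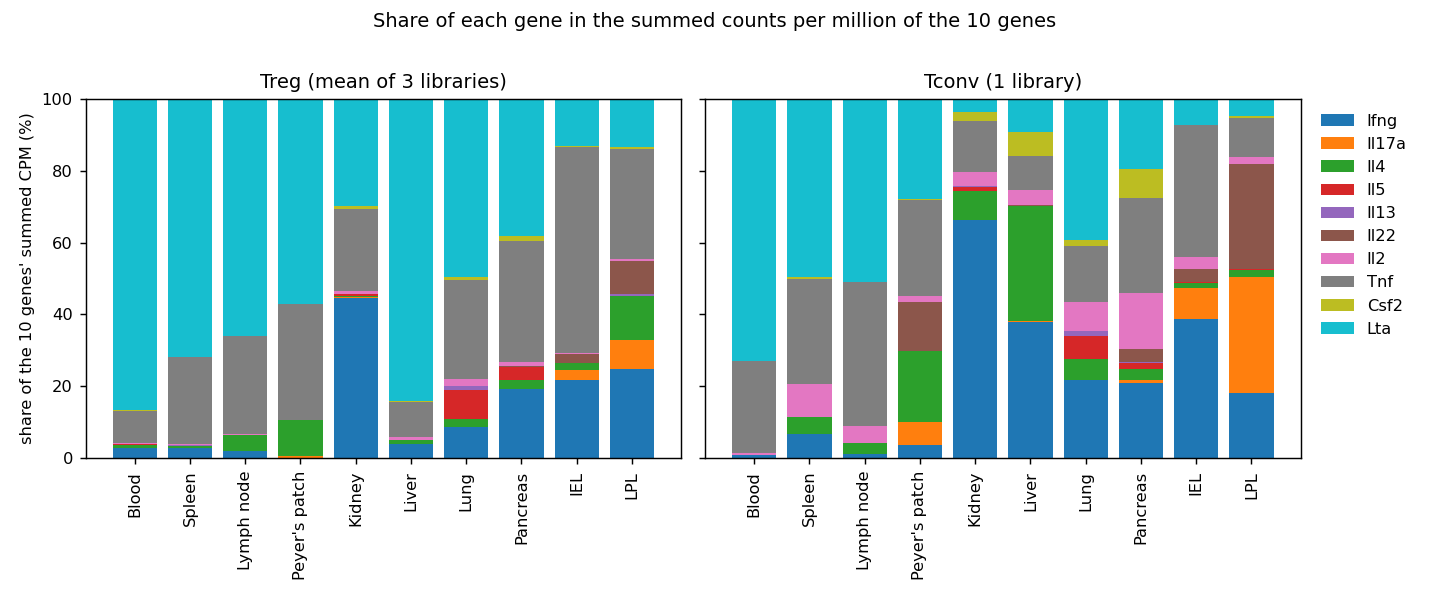
Stacked bars show the share (%) of each of the 10 genes in their summed CPM, for Treg (left, mean of 3 libraries per source) and Tconv (right, 1 library per source). Lta takes most of the bar in blood, spleen, lymph node, Peyer's patch and liver Treg (57.0% to 86.6%). Ifng has the largest mean share in kidney, although Lta exceeds it in kidney Treg replicate 1 (54.0 against 12.1 CPM). Il17a and Il22 appear in the gut wall, and also in Peyer's patch Tconv (6.15% and 13.6%) and pancreas Tconv (0.868% and 3.71%).

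With the source held constant, 5 of the 10 genes were lower in Treg than in Tconv and none was higher. These were Il22, Il2, Il17a, Csf2 and Ifng; over all 17924 genes tested, 14.9% passed the test in either direction and 6.73% were lower in Treg. The log2 difference was -5.40 ± 0.71 (SE) for Il22 (edgeR quasi-likelihood test, adjusted p = 8.41e-06) and -4.27 ± 0.57 for Il2 (adjusted p = 9.69e-07). It was -3.66 ± 0.73 for Il17a (adjusted p = 0.00101), -3.05 ± 0.88 for Csf2 (adjusted p = 0.0159) and -2.21 ± 0.46 for Ifng (adjusted p = 0.000702). The Csf2 call was lost without kidney Tconv replicate 6 (adjusted p = 0.0541), liver Tconv replicate 2 (0.0721) or spleen Tconv replicate 1 (0.0513), and the Il17a call was lost with DESeq2 (adjusted p = 0.0550). The other members did not pass: Il4 at -2.50 ± 0.94 (adjusted p = 0.0729), Il5 at -1.84 ± 1.15, Tnf at -0.54 ± 0.26, Il13 at -0.13 ± 2.52 and Lta at 0.36 ± 0.25. With limma-voom, Il4 and Il5 were also lower in Treg (adjusted p = 0.0353 and 0.00691) and Lta was higher (0.0165). DESeq2 also called Il4 lower (adjusted p = 0.00639), as did the fits without blood Treg replicate 5 (0.0300), blood Tconv replicate 5 (0.0380), lymph node Tconv replicate 8 (0.0426) or lung Treg replicate 6 (0.0450).

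Il2, the T cell growth factor, separated the populations in nearly every source. Its count lay between 0 and 59 in the 30 Treg libraries, and the Tconv library was above all 3 Treg libraries of its source in 9 of 10 sources. Kidney Tconv had 482 counts (24.6 CPM) against 10, 24 and 30 in kidney Treg, and pancreas Tconv had 468 counts (22.1 CPM) against 59, 29 and 5. LPL Tconv had 211 counts (10.7 CPM) against 17, 1 and 8. The exception was blood, where Tconv had 2 counts and Treg had 7, 3 and 0. Peyer's patch Treg had no Il2 count in any of 3 libraries, against 31 in the Tconv library, which was at least 34.7-fold higher than the limit that a count of 0 allows (3 counts over the group). Within Treg, Il2 did not pass between tissue and lymphoid sources (0.592 and 0.235 CPM, log2 difference 1.13 ± 0.87, edgeR adjusted p = 0.409).

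Ifng, the type 1 cytokine, had the largest count of the 10 in a single library and the widest range of CPM; summed over all libraries, Lta and Tnf had more counts. Kidney Treg had 251, 2203 and 2823 counts (12.1, 95.9 and 122 CPM) and kidney Tconv 8213 counts (419 CPM). Pancreas Treg had 25.2, 20.9 and 9.81 CPM, IEL Treg 23.5, 13.0 and 16.7 CPM, and LPL Treg 15.3, 21.2 and 25.0 CPM. All 12 of these libraries lay above all 9 lymphoid Treg libraries, in which the lowest value was 0.141 CPM, the median 1.71 CPM and the highest 4.43 CPM. Liver Treg (0.583, 1.81 and 1.56 CPM) and lung Treg (2.21, 1.92 and 3.10 CPM) lay within the lymphoid range. Peyer's patch Treg held the fewest, with 2, 4 and 3 counts (0.0967, 0.144 and 0.109 CPM), and overlapped only with blood replicate 4. In the order of the 10 Treg means, neighbours did not overlap between IEL and lymph node or between lung and liver. Kidney overlapped with LPL because of replicate 1, and the other pairs of neighbours overlapped too.

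Set against the mean of the lymphoid sources, Ifng rose in Treg of 4 sources and fell in 1. The log2 difference was 5.28 ± 0.51 in kidney (edgeR adjusted p = 1.32e-07), 3.39 ± 0.50 in LPL (1.60e-05), 3.25 ± 0.50 in pancreas (9.90e-05) and 3.20 ± 0.50 in IEL (4.91e-05). Without kidney Treg replicate 1 the kidney difference was 5.81 ± 0.46 (adjusted p = 3.70e-09). In Peyer's patch Treg Ifng fell by 3.98 ± 0.82 on the log2 scale (adjusted p = 0.00398), a call lost with limma-voom (adjusted p = 0.116). Liver and lung did not pass (-0.55 ± 0.59 and 0.33 ± 0.56). Over all 6 tissues the difference was 2.48 ± 0.38 (adjusted p = 5.11e-05), and it missed the threshold when counts were summed per source and 6 sources were set against 3 (3.47, adjusted p = 0.253).

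The Ifng level of Tconv was above all 3 Treg libraries of the same source in 8 of 10 sources and below them in 1, lymph node. Liver showed the widest gap, with 780 counts (59.5 CPM) in Tconv against 14, 38 and 29 in Treg, a ratio of mean CPM of 45.2. In kidney the ratio was 5.46, in lung 6.20, in LPL 4.74, in IEL 3.63 and in pancreas 1.59. The 6 tissue Tconv libraries lay between 14.9 and 419 CPM and the 3 lymphoid ones between 0.174 and 3.52 CPM, without overlap. The rise from lymphoid to tissue sources was smaller in Treg than in Tconv: the difference of the log2 differences was -3.91 ± 0.81 (edgeR, adjusted p = 0.0131), and 0.884% of all genes passed that test. Every Tconv group held 1 library in that fit, so its SE and p-value reflect the spread between Treg libraries only. They do not measure how Tconv libraries vary. With Tconv sources as replicates, the Ifng rise in Tconv was 6.29 ± 1.44 on the log2 scale (edgeR adjusted p = 0.127). No other member passed the test of the difference, but Csf2, Il5, Il13, Il17a and Il22 had no usable estimate there (SE of 4448 or more). The call was lost without blood Tconv replicate 5 (-3.26, adjusted p = 0.117) or lymph node Tconv replicate 8 (-3.65, adjusted p = 0.117), and with limma-voom (-3.59, adjusted p = 0.156).

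**Figure D2:**
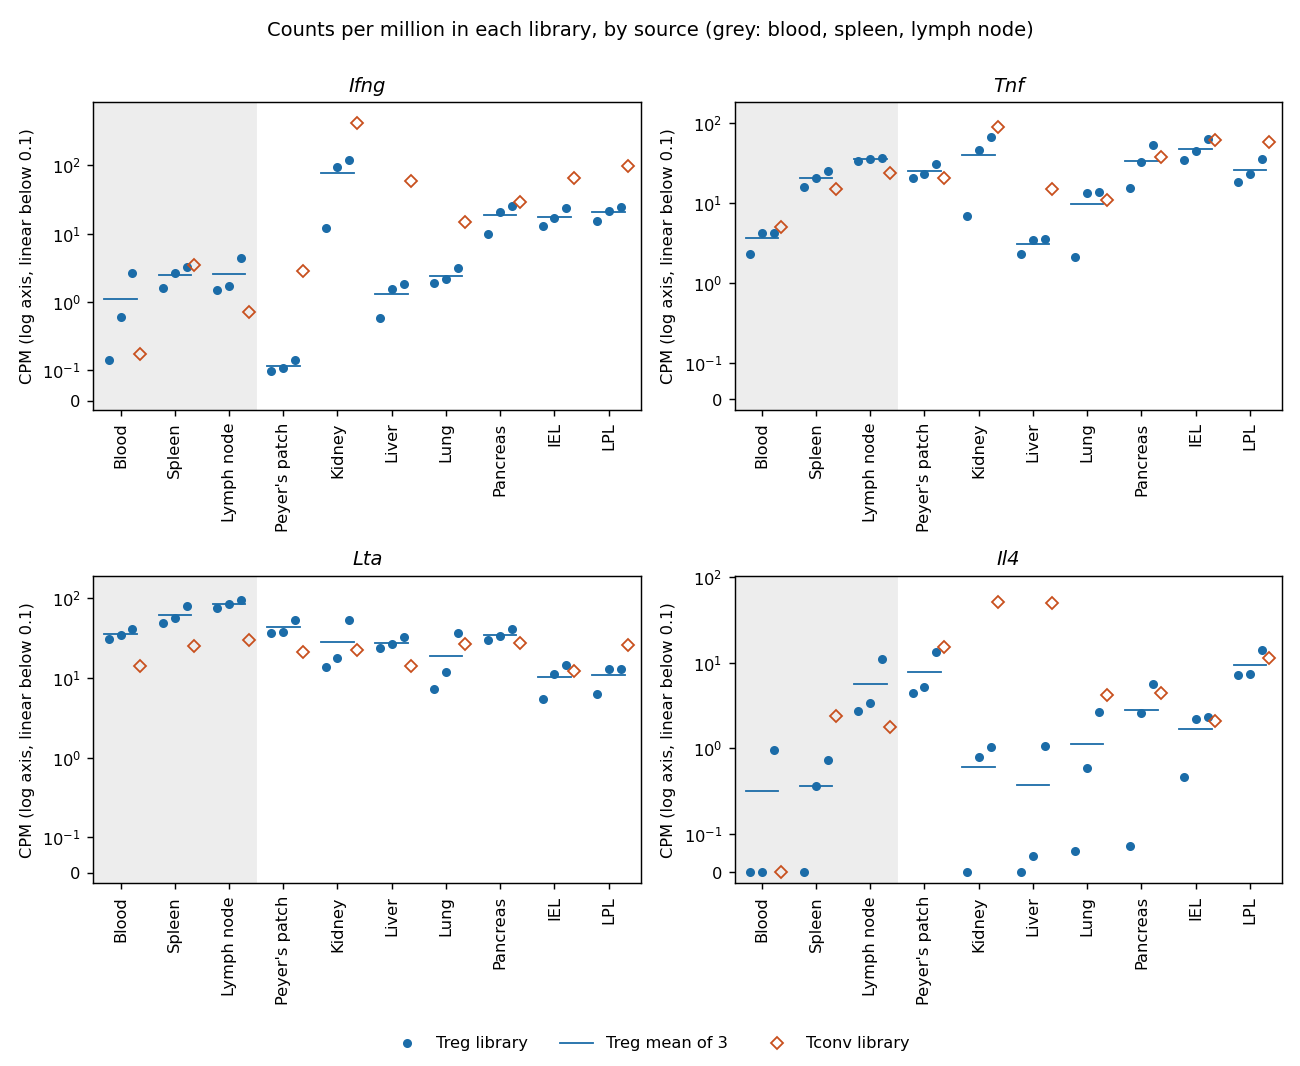
Each panel shows the CPM of 1 gene (log axis, linear below 0.1) in every library by source, with Treg libraries as blue dots, the mean of 3 Treg libraries as a line and the Tconv library as an open orange diamond; lymphoid sources have a grey background. Ifng reaches 122 CPM in kidney Treg and 419 CPM in kidney Tconv, while Lta is highest in lymph node Treg (76.5 to 95.3 CPM).

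The type 17 pair, Il17a and Il22, was found in few sources. No Il17a count was found in any Treg library of blood, spleen, lymph node, liver or lung. IEL Treg had 36, 92 and 47 counts (1.28, 3.08 and 2.08 CPM) and LPL Treg had 142, 274 and 71 counts (5.82, 11.4 and 3.11 CPM). Single Treg libraries elsewhere held Il17a as well: kidney replicate 3 with 25 counts, Peyer's patch replicate 1 with 21 and pancreas replicate 1 with 2, each with no count in the other libraries of that source. Il22 was narrower still, at 30, 97 and 16 counts in IEL Treg, 133, 347 and 69 in LPL Treg, and 3 counts in pancreas replicate 6; all other Treg libraries had none. Both genes passed the filter on low counts through the gut libraries alone.

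In IEL Treg, Il17a was at least 130-fold and Il22 at least 101-fold higher than in lymphoid Treg, measured against the limit of 3 counts over the 9 lymphoid libraries. In LPL Treg, the bounds were 411-fold and 463-fold. Against solid organ Treg, Il17a had 4.47 CPM in gut wall Treg against 0.0971 CPM. Since both genes were tested only because the gut libraries carried them past the filter, their edgeR calls in IEL, LPL and gut wall Treg had to follow and are not read as results. With DESeq2 the Il22 calls were lost (adjusted p = 0.322 in IEL, 0.167 in LPL and 0.126 against solid organs), and so was the Il17a call in IEL (0.0854). Il17a was also called in kidney (edgeR adjusted p = 0.0226, and 0.0138 without replicate 1). All of its 25 counts there lay in replicate 3, so that no count remained without that library. Over all tissues neither passed, since the log level of a source with no count has no finite estimate in that fit.

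LPL Tconv held the highest levels of both genes, 3407 Il17a counts (173 CPM) and 3096 Il22 counts (157 CPM), which were 25.4 and 20.5 times the mean of LPL Treg. IEL Tconv held 264 and 113 counts (14.3 and 6.14 CPM), or 6.67 and 3.66 times the IEL Treg mean. Peyer's patch Tconv had 106 Il17a and 235 Il22 counts, although Il22 had no count in the 3 Treg libraries there (at least 263-fold higher). Pancreas Tconv had 26 and 111 counts. Blood, spleen, lymph node and lung Tconv had no count of either gene.

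**Figure D3:**
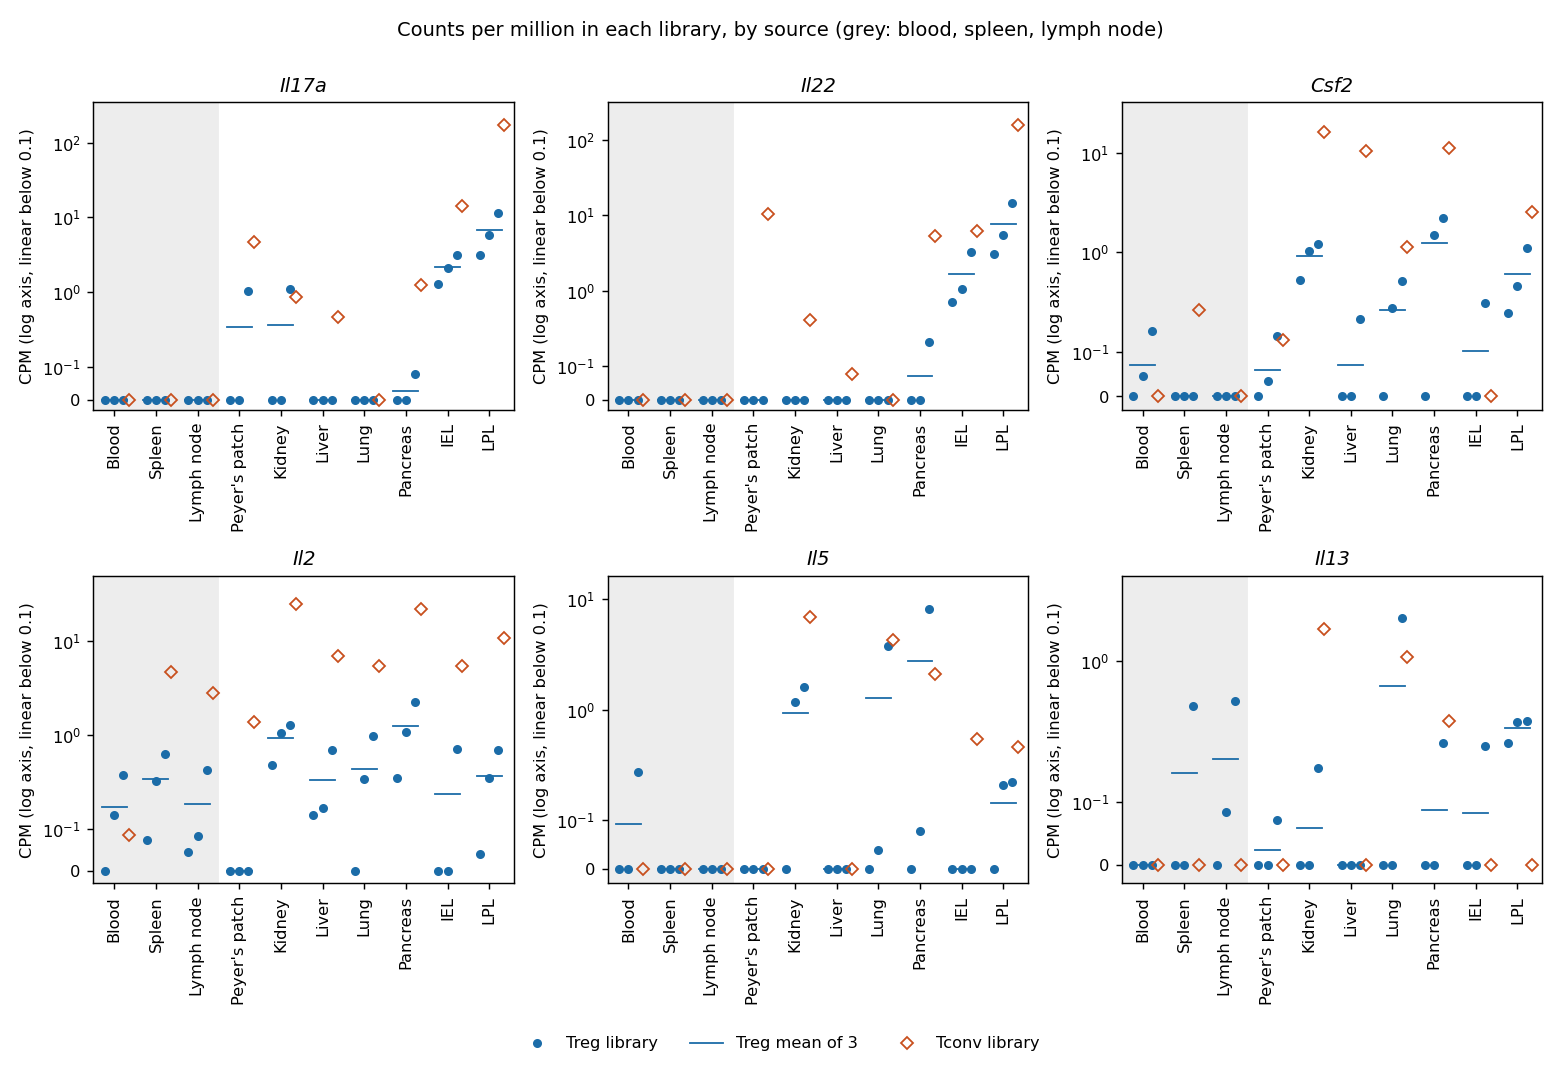
Each panel shows the CPM of 1 low-count gene (log axis, linear below 0.1) in every library by source, with symbols as in the plot of Ifng, Tnf, Lta and Il4. Il17a and Il22 are at 0 in blood, spleen, lymph node and lung of both populations and peak in LPL Tconv (173 and 157 CPM).

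Among the type 2 cytokines, Il4 had the most counts. LPL Treg had 340, 179 and 163 counts (13.9, 7.46 and 7.14 CPM), Peyer's patch Treg 279, 125 and 143 counts (13.5, 4.49 and 5.20 CPM) and lymph node Treg 75, 64 and 233 counts (3.37, 2.70 and 11.1 CPM). Spleen, blood, liver and kidney Treg each had at most 24 counts in a library, and every pair of neighbours in the order of the 10 means overlapped. LPL was the one source in which Il4 passed against the lymphoid mean (log2 difference 3.42 ± 1.13, edgeR adjusted p = 0.0254). That call was lost with lymph node alone as the reference (0.70, adjusted p = 0.783), without LPL Treg replicate 1 (3.03, adjusted p = 0.0968) or replicate 2 (3.52, adjusted p = 0.0503), and with 1 pooled mean per side (2.12, adjusted p = 0.253). In Tconv, Il4 was highest in kidney and liver, with 1008 and 660 counts (51.4 and 50.4 CPM), where Treg had 0, 18 and 24 and 1, 0 and 20 counts. The ratio of mean CPM was 84.7 in kidney and 135 in liver, but 1.20 in LPL and 1.23 in IEL, where Tconv lay among the Treg libraries. The order was turned in lymph node, where the Tconv library (33 counts, 1.80 CPM) lay below all 3 Treg libraries.

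Il5, the eosinophil growth factor, and Il13, which acts on mucus-producing epithelium, were near the limit of counting. In Treg, Il5 was found in kidney replicates 3 and 5 (27 and 37 counts), lung replicate 1 (67), pancreas replicate 6 (117) and, with 1 to 5 counts, in 5 other libraries. Its calls in lung (edgeR adjusted p = 0.0478) and pancreas (0.0291) rest on 1 library each: without that library the log2 difference was 0.89 (adjusted p = 0.693) in lung and 1.62 (0.631) in pancreas. Kidney narrowly missed the threshold (5.99 ± 1.97, edgeR adjusted p = 0.0504). It passed without kidney Treg replicate 1, which had no Il5 count (6.60 ± 2.02, adjusted p = 0.0365). No lymphoid Treg library had more than 5 Il5 counts, so the gene passed the filter through tissue libraries. These calls are not read as results. In Tconv, Il5 had 137 counts in kidney, 84 in lung and 45 in pancreas, the same 3 organs, and at most 10 elsewhere. Il13 had at most 39 counts in any library (lung Treg replicate 6) and passed in no comparison in which it was tested. LPL Treg was the one source with Il13 in all 3 Treg libraries, at 9, 9 and 6 counts, with none in LPL Tconv.

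Csf2, which encodes the myeloid growth factor GM-CSF, was almost absent from lymphoid Treg, with 4 counts in 9 libraries. Kidney Treg had 25, 12 and 24 counts, pancreas Treg 0, 40 and 32, and LPL Treg 6, 11 and 25. The edgeR adjusted p-values were 0.00895 in kidney (0.0162 without kidney Treg replicate 1), 0.00934 in pancreas and 0.00937 in LPL. No lymphoid Treg library was above 0.163 CPM, so Csf2 was tested only because tissue libraries carried it past the filter. Its calls against lymphoid Treg are therefore not read as results. Kidney and LPL did not overlap with the lymphoid libraries. The mean level was 39.6 times the lymphoid mean in kidney, 53.3 times in pancreas and 25.7 times in LPL, but that lymphoid mean rests on 4 counts. All 3 calls were lost with spleen alone as the reference (adjusted p = 0.103 in kidney, 0.139 in pancreas and 0.0917 in LPL) and with lymph node alone (0.0647, 0.0779 and 0.0577), both of which had no Csf2 count. With limma-voom the pancreas call was lost as well (adjusted p = 0.202). Over all tissues Csf2 was higher (0.534 against 0.0233 CPM, adjusted p = 0.0121), a call lost with spleen alone (adjusted p = 0.131) or lymph node alone (0.0822) as the reference, and without IEL Treg replicate 3 or liver Treg replicate 4, which leave a source with no count. In Tconv, Csf2 had 312 counts in kidney (15.9 CPM), 236 in pancreas (11.1 CPM) and 137 in liver (10.5 CPM), and at most 50 elsewhere. Liver Treg had 4 counts in 3 libraries, and the liver ratio of Tconv to Treg was 146. Tconv lay above all 3 Treg libraries in 6 sources.

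Tnf, the inflammatory cytokine, was found at 38 counts or more in every library, and it followed a different order of sources. IEL Treg had 43.9, 34.6 and 62.7 CPM and lymph node Treg 36.6, 35.3 and 33.4 CPM. Blood Treg had 2.33, 4.28 and 4.28 CPM, liver Treg 3.58, 2.29 and 3.50 CPM, and lung Treg 2.15, 13.7 and 13.5 CPM. Kidney Treg was split, at 6.92 CPM in replicate 1 and 45.7 and 65.9 CPM in the others. In the order of the 10 means, the ranges of the 7 highest sources, from IEL to spleen, ran into each other, and a gap separated spleen from lung.

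Because lymphoid sources themselves differed in Tnf, the tests against their mean depended on the reference. Tnf rose in IEL (log2 difference 1.77 ± 0.42, edgeR adjusted p = 0.00375) and kidney (1.50 ± 0.43, adjusted p = 0.0177) and fell in liver by 2.13 ± 0.54 (adjusted p = 0.0488). Against lymph node alone the IEL and kidney differences were 0.40 and 0.12 (adjusted p = 0.670 and 0.928), and both calls were also lost against spleen alone (adjusted p = 0.198 and 0.332). The kidney difference was 2.02 ± 0.39 (adjusted p = 0.000653) without replicate 1, and the call was lost without replicate 3 (1.40, adjusted p = 0.0790) or replicate 5 (0.93, adjusted p = 0.273). The liver call was lost in 22 of the 30 fits that left out 1 library, with an adjusted p of up to 0.221. Over all 6 tissues the difference was 0.47 ± 0.29 (adjusted p = 0.276), and 0.99 (adjusted p = 0.0169) without liver. Against solid organs, gut wall Treg were higher (36.3 against 21.4 CPM, log2 difference 1.29 ± 0.33, adjusted p = 0.00618), a call lost with 1 pooled mean per side (0.77, adjusted p = 0.354). Between Tconv and Treg of a source there was no common direction: the Tconv library lay above all 3 Treg libraries in 4 sources, below them in 2 and within them in 4, and the ratio of means ran from 0.667 in lymph node to 4.77 in liver.

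Lta, which forms soluble lymphotoxin and with Ltb the membrane form that organises lymphoid tissue, was the one member called lower over all tissues than in lymphoid Treg. Lymph node Treg had 76.5, 95.3 and 84.6 CPM, spleen Treg 49.3, 57.5 and 79.7 CPM and blood Treg 41.1, 35.1 and 30.9 CPM. IEL Treg had 14.5, 11.2 and 5.45 CPM and LPL Treg 12.8, 6.37 and 13.2 CPM, all below every lymphoid library. Neighbours in the order of the 10 means overlapped throughout, and the blood mean (35.7 CPM) lay near that of pancreas (34.8 CPM). The log2 difference between tissue and lymphoid Treg was -1.55 ± 0.23 (edgeR adjusted p = 2.87e-05), and -1.53 (adjusted p = 0.214) with counts summed per source. Lta fell by 2.45 ± 0.45 in IEL (adjusted p = 0.000329), by 2.42 ± 0.45 in LPL (0.000278) and by 1.60 ± 0.43 in lung (0.0161). Lung lost the call without lung Treg replicate 1 (-1.24, adjusted p = 0.0573) or replicate 5 (-1.35, adjusted p = 0.0861). Liver (-1.04 ± 0.41, edgeR adjusted p = 0.271) and pancreas (-0.74 ± 0.40, adjusted p = 0.257) did not pass. Kidney did not pass (-1.02 ± 0.41, adjusted p = 0.0895); its libraries were at 54.0 CPM in replicate 1 and 13.8 and 17.7 CPM in the others; without replicate 1 the difference was -1.86 ± 0.45 (adjusted p = 0.00499). In Tconv, Lta stayed between 12.3 and 29.8 CPM in all 10 sources, and the Tconv library lay below all 3 Treg libraries in 6 sources and above them in LPL alone.

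**Figure D4:**
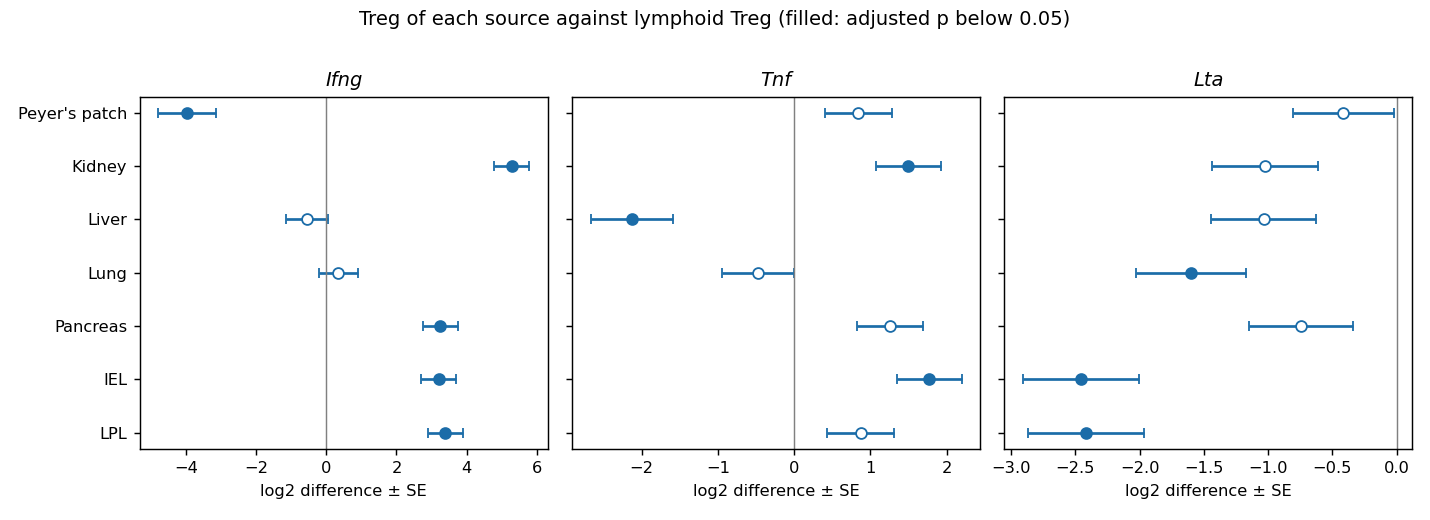
Points show the log2 difference (± SE) between the Treg of each source and the mean of blood, spleen and lymph node Treg for Ifng, Tnf and Lta, filled where the edgeR adjusted p was below 0.05. Ifng spans -3.98 in Peyer's patch to 5.28 in kidney. Lta is below 0 in all 7 sources but passed in IEL, LPL and lung alone.

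Counted by source, the members that passed against lymphoid Treg numbered 6 in LPL, where 27.1% of all genes passed, and 5 in IEL, where 21.2% did. They numbered 4 in kidney (16.4% of all genes), 3 in pancreas (9.95%), 2 in lung (11.5%), 1 in liver (1.12%) and 1 in Peyer's patch (3.57%). Over all tissues 3 of the 10 passed, Ifng, Csf2 and Lta, against 21.8% of all genes. Il5, Il13, Il17a and Il22 had no usable estimate there (SE of 1370 or more), since some sources had no count. With 1 pooled mean per side, an alternative chosen after seeing that several sources had no count, 5 members passed against 16.4% of all genes. All 10 members passed the filter on low counts in these fits. The counts for IEL, LPL, all tissues with pooled means and the gut wall include Il17a and Il22, which entered through the gut libraries, and that for kidney includes Il17a. The counts for kidney, pancreas, LPL and all tissues include Csf2, and those for lung and pancreas include Il5. Both of these genes entered through tissue libraries. In gut wall against solid organ Treg, 5 of the 10 passed (Il17a, Il22, Ifng and Tnf higher, Lta lower), against 23.6% of all genes. With 1 pooled mean per side 3 did, against 18% of all genes, and the Ifng difference turned from 1.22 ± 0.39 (adjusted p = 0.0259) to -0.36 (adjusted p = 0.819), the mean level being 19.1 CPM in the gut wall and 24.8 CPM in solid organs. The Ifng call there was also lost without IEL Treg replicate 1 (adjusted p = 0.0743), LPL Treg replicate 2 (0.0574) or LPL Treg replicate 3 (0.0627).

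Among Tconv, with 1 library per source, no member and no gene passed in the comparison of 6 tissues with 3 lymphoid sources (0% of 14453 genes tested by edgeR). At an unadjusted p below 0.05, 8 of the 9 members tested and 2119 genes would have passed; Il13 was removed by the filter. DESeq2 called 4 members (Ifng, Il4, Il5 and Csf2), and limma-voom called 1 (Tnf). The levels themselves did not overlap for Ifng or for Il2, which lay between 5.38 and 24.6 CPM in tissue Tconv and between 0.0870 and 4.64 CPM in lymphoid Tconv.

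**Figure D5:**
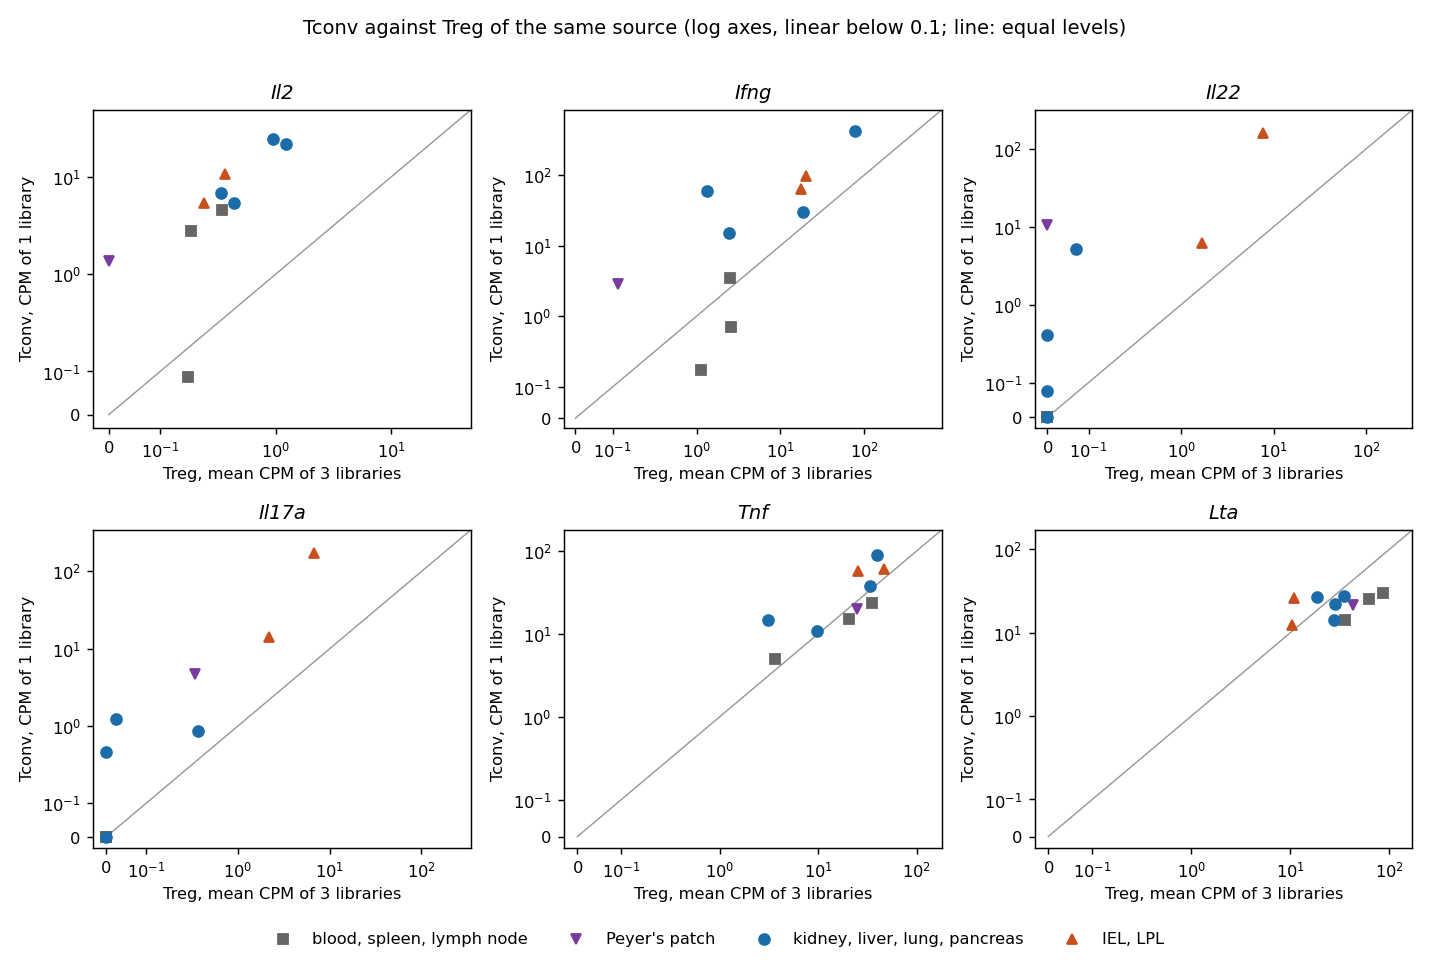
Each point is 1 source, with the mean Treg CPM of 3 libraries on the x axis and the Tconv CPM of 1 library on the y axis (log axes, linear below 0.1), and the line marks equal levels. Il2 lies above the line in 9 of 10 sources, whereas Tnf lies near it and Lta mostly below it.

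Several quantities moved with these differences. The summed level of the 16 markers of CD8, gamma delta, NK and innate lymphoid cells was 409 to 2745 CPM in tissue Tconv and 224 to 284 CPM in lymphoid Tconv, and 150 to 804 CPM in tissue Treg and 106 to 211 CPM in lymphoid Treg. Single markers were split in Treg: 3 of the 15 tested rose and 2 fell in tissue against lymphoid Treg, where 21.8% of all genes passed. In gut wall against solid organ Treg 5 rose and 5 fell, where 23.6% passed. With the source held constant, 10 of the 15 tested were lower in Treg and none higher, against 6.73% of all genes lower in Treg. Klrd1, an NK receptor chain, differed by -7.28 ± 0.61 and Zbtb16, the regulator of NKT cells, by -6.75 ± 0.76. In tissue Tconv the mean was 121 CPM for Tcrg-C2, 56.5 CPM for Klrb1c, 36.4 CPM for Cd8a and 1.38 CPM for Ncr1, and Klra8 was at 0 in all libraries. Markers of such cells therefore moved with the Tconv levels, and the part of such cells in the Tconv levels of Ifng, Il4, Il17a and Il22 was not tested. Myeloid markers summed to 10.5 to 14.3 CPM in gut wall Treg and 4.61 to 39.8 CPM in lymphoid Treg, but 67.5 to 548 CPM in kidney, 43.3 to 965 CPM in pancreas and 17.0 to 1636 CPM in lung Treg. Of the 16 tested, 11 rose in kidney Treg, 10 in pancreas Treg and 5 in lung Treg. In IEL Treg 2 rose and 2 fell, and in LPL Treg 2 rose and 1 fell. In each of these sources mean Ifng and Csf2 lay above the lymphoid means, in lung Ifng by little (2.41 against 2.06 CPM). Of all genes, 16.4% passed in kidney, 9.95% in pancreas, 11.5% in lung, 21.2% in IEL and 27.1% in LPL, in either direction. Markers of mast cells, basophils and eosinophils summed to 37.5 to 86.5 CPM in lung, 11.9 to 34.8 CPM in kidney, 16.8 to 25.8 CPM in pancreas and 19.7 to 28.6 CPM in liver Treg, against 1.77 to 13.7 CPM in lymphoid Treg. Of the 5 tested, 3 rose in lung, 2 in kidney, 1 in pancreas and 1 in liver, where 1.12% of all genes passed. Lung, kidney and pancreas are the organs with the most Il5, and liver Treg had no Il5 count. Mcpt4, Mcpt8, Cma1, Tpsb2 and Fcer1a were at 0 in all 30 Treg libraries, so they are not among the 5 markers tested, some of which rose. The part of myeloid and granulocyte RNA in the levels of Ifng, Csf2, Il5 and Il13 was not tested. Epithelial, acinar, stromal and endothelial markers reached 76090 CPM in pancreas Treg against at most 297 CPM in lymphoid Treg.

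Genes of the early response, which dissociation of tissue and antigen signals both induce, also differed by source. Their summed level was 1489 to 2320 CPM in lymphoid Treg, 12508 to 29070 CPM in kidney, 12300 to 16429 CPM in pancreas, 10259 to 11084 CPM in IEL and 14731 to 18524 CPM in LPL Treg. Ifng rose in these 4 sources. In liver Treg the sum was 1951 to 2321 CPM, in lung Treg 2182 to 10868 CPM and in Peyer's patch Treg 2329 to 8608 CPM. In Peyer's patch Treg 9 of 15 early response genes rose (3.57% of all genes passed in either direction) while Ifng fell. In lung Treg 10 of 15 rose (11.5% of all genes) while Ifng did not pass. In IEL Treg, where Ifng rose, 10 of 15 rose (21.2% of all genes). Kidney Treg replicate 1, with the lowest Ifng and Tnf of its source, had the lowest early response sum of its source as well. In tissue against lymphoid Treg, 14 of 15 early response genes rose (21.8% of all genes passed in either direction), with Fos at 4.79 ± 0.54 and Junb at 3.33 ± 0.34 on the log2 scale, the median being 3.85 against 0.03 for all genes. Liver Tconv had an early response sum of 1984 CPM, near the lymphoid Tconv range of 1352 to 1927 CPM, with Ifng at 59.5 CPM and Il4 at 50.4 CPM. The part of the early response in the cytokine levels was not tested.

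Among the genes of the same pathways, the regulators of helper classes come first. In tissue against lymphoid Treg, where 21.8% of all genes passed, 15 of 22 rose and none fell, led by Bhlhe40 (3.64 ± 0.32), Rora (2.47 ± 0.26), Ahr (1.37 ± 0.15) and Maf (1.47 ± 0.16). In gut wall against solid organ Treg, where 23.6% passed, 10 of 22 rose and 2 fell, with Il23r, the receptor chain for interleukin 23, at 6.30 ± 0.78. Of the NFAT and NF-kB signal genes, 12 of 15 rose in tissue Treg, with Nr4a1 at 3.17 ± 0.35 and Nfkbid at 2.02 ± 0.24. Of the other T cell cytokines, 9 of 17 tested rose and 1 fell in tissue Treg. They included Il10, an inhibitory cytokine, at 5.54 ± 0.48 and Areg, an epithelial growth factor, at 5.16 ± 0.62. Against Tconv, Ebi3, Il10 and Areg were higher in Treg (3.27 ± 0.32, 3.69 ± 0.49 and 3.61 ± 0.53) whereas Il17f, the partner of Il17a, was lower (-5.98 ± 0.68).

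Of 18 cytokine receptor chains tested, 4 rose in tissue Treg and 1 fell, a share near the 21.8% of all genes; Ifngr1 rose by 1.79 ± 0.24, Tnfrsf1b, the second Tnf receptor, by 1.59 ± 0.19, and Il2ra, the chain of the high-affinity interleukin 2 receptor, fell by 0.73 ± 0.11. Il2ra was higher in Treg than in Tconv (3.70 ± 0.42), the opposite direction to Il2. Of the genes that respond to interferon gamma, 3 of 20 rose and 6 fell in tissue Treg, with Cd274 at 1.33 ± 0.19 and Iigp1 at -0.63 ± 0.11. Of the 10 genes of cytokine message decay, 4 rose in tissue Treg: Zfp36 at 1.57 ± 0.21, Zfp36l1 at 1.05 ± 0.15, Zc3h12a at 1.85 ± 0.29 and Zfp36l2 at 0.73 ± 0.19. All of these passed the edgeR test over all genes.

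The genes whose levels across the 40 libraries were most like each member differed between members. Likeness was measured as Pearson's r of log2(CPM + 1) and is a description, since libraries share sources. Ifng was most like the chemokines Xcl1 (0.89) and Ccl4 (0.88) and the type 1 regulator Tbx21 (0.88). Il17a was most like Il22 (0.96), Sprn (0.88) and Il17f (0.87). Il2 was most like Spry2 (0.84) and Cd40lg (0.83), the helper ligand CD40L. Tnf was most like Egr1 (0.82), an early response gene, and Dusp6 (0.82). Lta was most like Slc22a2 (0.84) and Eno3 (0.82), Csf2 most like Spry2 (0.82) and Il4 most like Klrb1f (0.74).

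Neighbours on a chromosome did not always follow each other. Tnf and Lta lie 1158 bases apart on chromosome 17, yet r was -0.07 over the 40 libraries, and Tnf was higher while Lta was lower in gut wall than in solid organ Treg. Ifng and Il22 lie 230999 bases apart on chromosome 10, with r = 0.42. Il4 and Il13, 12655 bases apart on chromosome 11, had r = 0.38, and Il5, on the same chromosome, had r = 0.07 with Il4. The closest pair, Il17a and Il22, lies on chromosomes 1 and 10. Both had no count in blood, spleen, lymph node and lung libraries and peaked in LPL Tconv, so their r rests on few sources. Low counts of Il5 and Il13 limit what their values can show.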

How the data were processed

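Sorted Treg and Tconv of 10 mouse sources were sequenced from the 3′ ends of transcripts, in 40 libraries. The authors deposited 1 table of raw read counts per gene; per the submitters' processing notes the tools include Trim Galore, STAR and featureCounts, with build mm10, and their settings are not given in the sources used here. The length column of the deposited table was not used for levels. Of 55421 identifiers, 55154 were given a symbol from GENCODE M21.

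CPM were computed from counts and TMM-scaled library totals (12197980 to 28823493 counts, which limit the precision of genes with few counts). Differences were tested over all genes passing filterByExpr with edgeR 4.0.16 (robust quasi-likelihood test, Benjamini-Hochberg adjusted p below 0.05): Treg against Tconv with source as a factor, and sources as means in a fit of the 30 Treg libraries. The comparison among Tconv used 9 libraries, and the difference of differences used all 40. The test was checked on simulated data. Alternatives were DESeq2 1.42.0, limma-voom (limma 3.58.1), no filter, median-ratio size factors, a replicate block, other references, sums per source and leaving out each library.

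The 10 genes and the gene lists were chosen with earlier results of these data known. All 10 are named in each comparison; from each list up to 4 genes with the smallest p were named, from lists of other cell types also abundant or defining markers, and for each of the 10 genes the most alike genes by Pearson's r of log2(CPM + 1), leaving out predicted genes and receptor segments. Folds against groups with no count use a floor of 3 counts over the group, which covers counting error only. Same-numbered libraries did not deviate together (median r of -0.01 over 58 pairs, 6 of them over 0.1), so numbers were not taken as pairs.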

Additional observations from a re-analysis of the deposited data

Results flagged for a closer look

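In 7 of 28 groups of 6, 9 or 10 libraries examined, 1 library stood far from the others by Dixon's criterion. Chance alone gives about 1 in 20 for replicates of 1 kind. That rate does not hold here, since these groups mix sources and some are at 0 in most libraries. Among the 10 Tconv libraries, each from a different source, Ifng was far highest in kidney replicate 6 (419 CPM), Il17a in LPL replicate 3 (173 CPM) and Il22 in the same LPL library (157 CPM). Among the 9 lymphoid Treg libraries, Il4 stood out in lymph node replicate 7 (11.1 CPM), Il5 in blood replicate 2 (0.271 CPM, 5 counts) and Csf2 in blood replicate 2 (0.163 CPM, 3 counts). Among the 6 gut wall Treg libraries, Il22 stood out in LPL replicate 2 (14.5 CPM).

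The rise of Ifng from lymphoid to tissue sources differed between Treg and Tconv, by -3.91 on the log2 scale. Every Tconv group held 1 library in that fit, so the spread between Tconv libraries was not measured. The edgeR call was lost without the blood or the lymph node Tconv library, and with limma-voom.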

How the results depend on the processing

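Of 36 calls of a member in a comparison, 25 held in every fit that left out 1 library, 10 in every other alternative and 9 in both. The 36 include the calls within Treg of Il17a, Il22, Il5 and Csf2, which are not read as results because of the filter. Those of Il17a and Il22 in IEL, LPL and gut wall Treg are among the 25. So are those of Csf2 in kidney, pancreas and LPL Treg. None of these calls is among the 9. The 9 are Il2, Il22 and Ifng lower in Treg than in Tconv, Ifng higher in kidney, pancreas, IEL and LPL Treg, and Lta lower in IEL and LPL Treg. Il17a in kidney Treg had no count, and no value, without kidney Treg replicate 3. With 1 pooled mean per side, Ifng in gut wall against solid organ Treg turned to -0.36 (adjusted p = 0.819).

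The number of the 10 genes called moved as follows; the cause was not tested. The counts are printed without the share of all genes called in the same fit. The number of all genes called also moved with the setting, as given below for part of the settings. The counts therefore do not show whether the 10 genes moved more than other genes. With limma-voom it was 8 for Treg against Tconv (5 in edgeR), 5 for tissue against lymphoid Treg (3), 1 for lung (2), 5 for pancreas (3), 1 for Tconv (0) and 2 for the difference of differences (1). With DESeq2 it was 1 for lung, 3 for IEL (5) and 4 for Tconv. With a replicate block it was 1 for kidney (4), 0 for liver (1), 1 for lung, 1 for pancreas, 3 for LPL (6), 0 for Peyer's patch (1) and 2 for gut wall against solid organs (5). With spleen alone as the reference it was 1 for kidney, 1 for lung, 1 for pancreas and 3 for IEL; with lymph node alone, 2, 1 and 1 for kidney, lung and pancreas. Without a filter it was 0 for liver and 2 for Peyer's patch. With counts summed per source it was 0 for tissue against lymphoid Treg. With 1 pooled mean per side it was 5 there, 0 for liver, 1 for lung and 3 for gut wall against solid organs.

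Leaving out 1 library gave 4 to 6 for Treg against Tconv, 2 to 3 for tissue, 2 to 6 for kidney, 0 to 1 for liver, 1 to 2 for lung, 2 to 4 for pancreas, 5 to 5 for IEL, 5 to 6 for LPL, 1 to 2 for Peyer's patch, 4 to 6 for gut wall against solid organs, 0 to 0 for Tconv and 0 to 2 for the difference of differences. These fits used the genes and dispersion trend of the full fit. The share of all genes called in each of them is not given, so these counts are not read against other genes.

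Over all genes, counts also moved by more than 1.5 times. Tissue against lymphoid Treg called 3911 genes, but 6116 with limma-voom, 1391 with the block, 1377 against spleen and 0 with sums per source. Kidney called 2945 (874 with the block, 5330 with limma-voom), liver 200 (7 and 1412), pancreas 1782 (400 and 4778), IEL 3803 (1339 and 6675), LPL 4852 (2075 and 7815), Peyer's patch 639 (145 and 2869) and gut wall against solid organs 4219 (1941 and 6714). Lung called 2058 (1104 with limma-voom, 542 against lymph node). Among Tconv 0 genes were called by edgeR, 1236 by DESeq2, 1369 by limma-voom and 108 by edgeR without pancreas Tconv replicate 5. Treg against Tconv called 2670 genes, and 1411 in the 6 sources whose Tconv library shares a number with a Treg library, where Csf2 was not called (-1.45, adjusted p = 0.497). The difference of differences called 203 (638 by DESeq2, 543 by limma-voom).

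With a replicate block Csf2 in Treg against Tconv was at -2.92 (adjusted p = 0.0840) and Ifng in Peyer's patch at -3.54 (0.103). The block could not be fitted for the difference of differences and was not made for Tconv, where the sources share fewer than 2 numbers. Counts under about 10 limit Il5, Il13 and Csf2 in Treg.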
